A study of Mus musculus with 15 samples.

Results

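Of the 43020 accessible regions counted in 15 mouse colon cancer organoid lines, 1587 (3.69%) carried strong signal at nearly the same level in all 5 groups of lines, and they are called even regions here. They were chosen by their own counts: each group's 3 libraries were pooled into 1 value in CPM (counts scaled to a common library total), every group had to reach 30 CPM, and the highest group had to stand under 1.3 times the lowest. The level alone was met by 6740 regions, so 23.5% of the strong regions were even, and the other 5153 strong regions, called uneven here, missed the ratio. Because group values chose these regions, their evenness across groups is a description and not a finding.

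The lines were organoids of genotype AKP from tumours carried through serial transplantation into the colon of C57Bl6 mice, and their open chromatin was profiled with ATAC-seq, which uses a transposase to cut and tag accessible DNA. Liver metastases of round 1, 2 and 3 gave the groups Met1, Met2 and Met3, and primary tumours of rounds 2 and 3 gave Primary2 and Primary3. Each group had 3 lines, and genotype and host strain were the same throughout. Round 1 primary tumours were not analysed here, and the descent of single lines was not used. The deposited counts carry no gene names, and no annotation or genome of their build, mm9, was used, so neither the epithelial identity of the lines nor the genes at these regions was examined.

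In chromatin, accessible regions are stretches of DNA with few nucleosomes, most of them gene promoters, enhancers or sites bound by insulator proteins. Promoters of genes that every cell uses and insulator sites are known to stay open across cell states, whereas enhancers differ more between states. Regions open to the same degree in all samples often serve as the reference against which gains and losses elsewhere are read.

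The total of counts in regions ran from 285633 in Primary3 replicate 2 to 5916109 in Primary3 replicate 3. The next lowest was Met1 replicate 1 with 790233. Both of these shallow lines stood apart from the rest of their groups, and some summaries of spread are given with and without them. Ranges at named regions mostly include them, as do the correlations of lines. Pooling gave Primary3 replicate 2 only 3.09% of its group's counts and Met1 replicate 1 only 10.8%, while Primary3 replicate 3 supplied 63.9% of Primary3, so the group values that chose the even regions leaned on the deeper lines. The median even region held 19 counts in Primary3 replicate 2, 43 in Met1 replicate 1 and between 77 and 371 in the other lines.

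The limits of the rule cut through a continuous distribution, as the plot of ratio against signal shows. Only 73 even regions had a group ratio under 1.1, 531 had a ratio from 1.1 to 1.2, and 983 lay between 1.2 and 1.3. The median ratio was 1.22 in the even regions and 1.56 in the uneven strong regions. Of the uneven regions, 2069 lay between 1.3 and 1.5, 2301 between 1.5 and 2, and 783 at 2 or more. The 3 regions just inside the limit were peak_104455, peak_103118 and peak_66977, with mean group signals of 53.0, 35.3 and 41.7 CPM, and the 3 just outside were peak_19777, peak_44600 and peak_53106, with 62.1, 56.9 and 75.9 CPM. All 6 lay within 0.001 of the limit. At the level limit, peak_54889, peak_55007 and peak_30399 were kept with lowest group values of 30.02, 30.02 and 30.04 CPM. The regions peak_107970, peak_40571 and peak_66534 were left out with 29.94 CPM each, although all 3 were under the ratio limit.

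**Figure D1:**
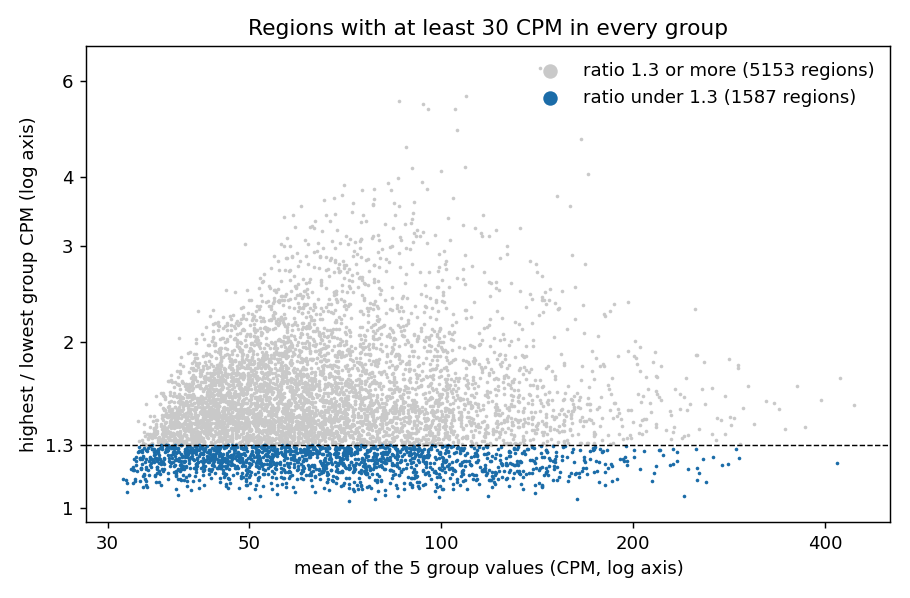
Highest group CPM divided by lowest group CPM (vertical, log axis) against the mean of the 5 group values in CPM (horizontal, log axis), 1 point per strong region. The 1587 even regions (blue) lie under the dashed line at 1.3, the 5153 uneven ones (grey) lie above it, and no gap separates them.

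The strongest even region was peak_13840, 3814 bp wide at positions 74643404 to 74647218 of chromosome 11. Its 3 Met1 lines stood at 305, 437 and 445 CPM, its Primary2 lines at 356, 365 and 401, and its Met2 lines at 394, 429 and 368. Its Primary3 lines stood at 419, 532 and 448 CPM and its Met3 lines at 444, 471 and 409. The lowest of the 15 values came from Met1 replicate 1 and the highest from Primary3 replicate 2, the pair of shallow lines. The 3 Primary2 lines lay below every Primary3 and Met3 line, while their range overlapped with those of Met1 and Met2. The pooled group values ran from 371 CPM in Primary2 to 447 CPM in Met3, a ratio of 1.21. In rounds 2 and 3 together, metastasis lines differed from primary lines by a log2 fold change of 0.07 (SE 0.12, 95% interval -0.18 to 0.33, adjusted p = 0.737 by edgeR's quasi-likelihood test). The rule bounded these group values, so the interval and the p are a description here and no evidence of equal levels.

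The densest signal belonged to peak_65144, only 1104 bp wide at positions 56545654 to 56546758 of chromosome 4. With a mean of 289.5 CPM it held 262 CPM per kb, the highest density of any even region, against 109 CPM per kb at peak_13840 and a median of 53.9 over the even regions. Its lines stood at 167, 249 and 280.0 CPM in Met1, at 273, 255 and 336 in Primary2 and at 329.6, 318 and 248 in Met2. They stood at 269, 315 and 291 CPM in Primary3 and at 372, 308 and 300.4 in Met3. Met3 was the highest group at 325 CPM pooled and Met1 the lowest at 254, a ratio of 1.28, and Met1 replicate 1 lay well under every other line. Every Met3 line lay above every Met1 line, while the ranges of Met3 and Primary2 overlapped.

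The next in strength were peak_13907 on chromosome 11 (293.6 CPM), peak_98530 on chromosome 8 (281.9 CPM), peak_78413 on chromosome 5 (275.5 CPM) and peak_37089 on chromosome 16 (266.4 CPM). At peak_37089, positions 38088351 to 38089902, the 15 lines ran from 213 to 304 CPM, a 1.42-fold range and the narrowest of the 6. At peak_78413, positions 138069704 to 138072127, they ran from 175 to 412 CPM, a 2.35-fold range, although its pooled groups spanned only 254 to 304 CPM. The 3 Met2 lines at that region stood at 412, 225 and 312 CPM, and the 3 Primary2 lines at 340.1, 251 and 211. Lines of the same group thus stood further apart there than the groups did, and neither shallow line is among these 6 values. The SD of log2 CPM between lines of a group was 0.38 at peak_78413 and 0.19 at peak_37089.

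**Figure D2:**
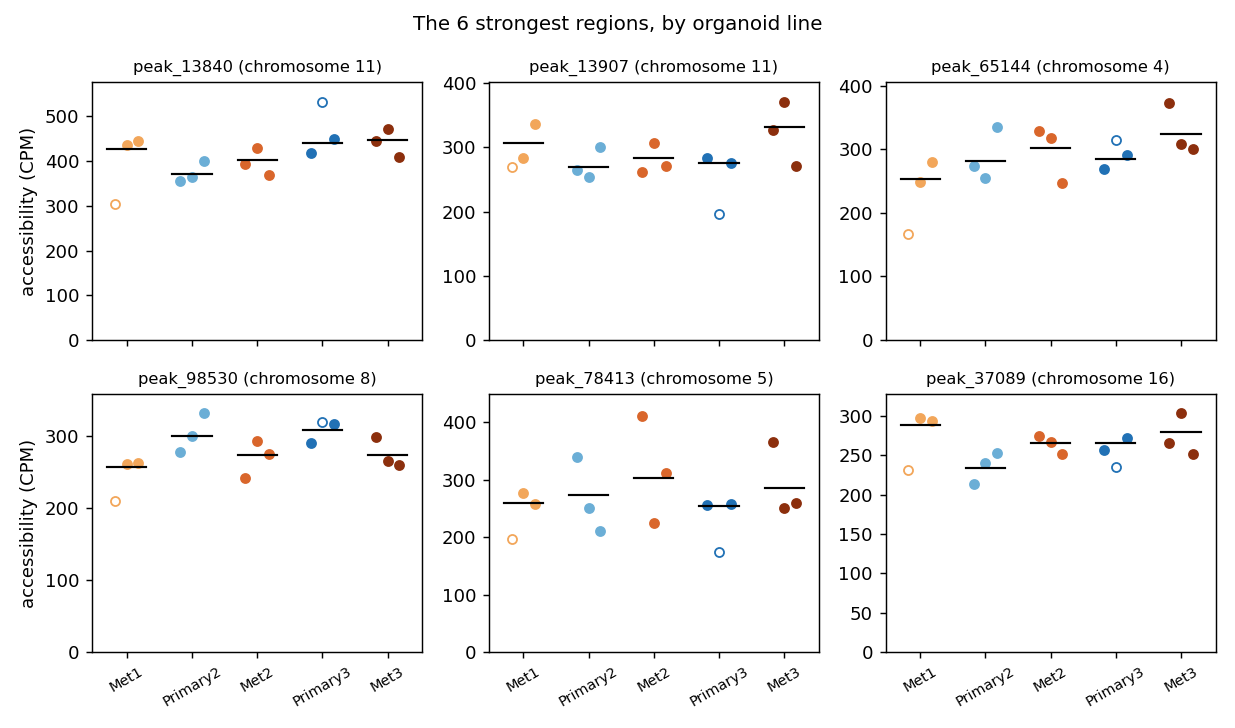
Accessibility in CPM (vertical, from 0) of the 6 strongest even regions in each of the 15 organoid lines (points, coloured by group), with the pooled value of each group as a horizontal bar. Open points mark Met1 replicate 1 and Primary3 replicate 2, the pair of shallow lines, and lines of 1 group spread most at peak_78413, where Met2 ran from 225 to 412 CPM.

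The strongest even region of each of the 20 chromosomes without Y ran from peak_25467 on chromosome 13 with a mean of 102.9 CPM to peak_13840 on chromosome 11. Met1 replicate 1 was the lowest line at 13 of the 20, on the scale of library totals that all CPM values here use. Among the steadiest was peak_49615 at positions 42055074 to 42056657 of chromosome 19, with 219, 265 and 251 CPM in Met1, 226, 279.7 and 297 in Primary2 and 251, 241 and 272 in Met2. It stood at 219.9, 263 and 265 CPM in Primary3 and at 276, 279 and 283 in Met3. All 15 lines lay within a 1.36-fold range, and the Met3 lines, the tightest of the groups, overlapped with the Primary2 range. The strongest on chromosome X, peak_107264 at positions 96131438 to 96134119, also ranged 1.36-fold, from 91.0 CPM in Primary3 replicate 2 to 124 CPM in Met3 replicate 1. The widest range, 2.44-fold, was at peak_6649 on chromosome 10, where the Met1 lines stood at 83.5, 179 and 198 CPM and the Met2 lines at 127, 204 and 144. The range of the Met1 lines there took in those of Primary2, Primary3 and Met3.

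The 6 regions with the lowest ratios had group values that almost coincided, and lines that did not. The lowest ratio, 1.03, belonged to peak_29647 at positions 76903149 to 76906071 of chromosome 14, 2922 bp wide. Its lines stood at 64.5, 64.5 and 82.0 CPM in Met1, at 72.5, 63.6 and 81.8 in Primary2 and at 73.6, 60.1 and 91.2 in Met2. They stood at 71.1, 49.0 and 71.3 CPM in Primary3 and at 82.1, 74.0 and 52.3 in Met3. The pooled groups ranged from 70.6 to 72.7 CPM while single lines ranged 1.86-fold, from 49.0 to 91.2 CPM, and the extremes came from Primary3 and Met2. At the next 5, peak_38660 (1.04), peak_11071 (1.04), peak_56057 (1.04), peak_60874 (1.05) and peak_21725 (1.05), the lines ranged 1.90-, 1.54-, 1.95-, 2.12- and 2.12-fold. Met1 replicate 1 was the lowest line at 4 of these 5, all but peak_11071. A low ratio of pooled groups therefore came with the usual spread of lines: the SD between lines of a group at the 6 regions ran from 0.19 at peak_11071 to 0.32 at peak_29647, around the median of 0.287 over all even regions.

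Evenness over all 15 lines was rarer than evenness over groups. In 840 even regions (52.9%) the highest line was under 2 times the lowest, and in 118 (7.44%) under 1.5 times. Over the 13 deeper lines those counts rose to 1286 (81.0%) and 336 (21.2%). Among the uneven strong regions, 1529 (29.7%) stayed under 2 times and 46 (0.893%) under 1.5 times over the 13 deeper lines. The median range over these lines was 1.70-fold in the even regions and 2.28-fold in the uneven ones, a comparison that the rule favours since it bounds the groups.

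The smallest spread over all 15 lines was at peak_106740 on chromosome X, positions 53850585 to 53851646. Its Met1 lines stood at 32.9, 33.2 and 35.9 CPM, its Primary2 lines at 29.3, 32.9 and 30.8, and its Met2 lines at 38.4, 32.5 and 33.3. Its Primary3 lines stood at 33.4, 38.5 and 38.2 CPM and its Met3 lines at 29.3, 35.4 and 32.7. No line lay far from the others, and the SD over lines, 0.13 on the log2 scale, was under the 0.21 that counting error alone would give at these depths. The other 3 regions with the smallest spread were peak_50241 on chromosome 19 (SD 0.13), peak_19292 on chromosome 12 (SD 0.14) and peak_106990 on chromosome X (SD 0.14). Of the 3, peak_50241 was the strongest, with lines between 115 and 165 CPM.

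At the other end, 3 even regions had 0 counts in Primary3 replicate 2, where a count of 0 allows up to 10.5 CPM. At peak_48634 on chromosome 19 the Primary3 lines stood at 37.0, 0 and 46.8 CPM, the Met2 lines at 17.3, 53.5 and 78.9, and the Met1 lines at 70.9, 38.3 and 32.6. This region differed widely between deep lines too, as the 3 Met2 values show. At peak_69841 and peak_65452 on chromosome 4 the other 14 lines ran from 36.4 to 70.3 CPM and from 33.4 to 57.7 CPM, so their place among the most variable rested on the shallowest line. The fourth, peak_32073 on chromosome 15, held 2 counts in Primary3 replicate 2 and 12.7 CPM in Met1 replicate 1, against 28.1 to 49.7 CPM in the other 13 lines.

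The rule used sums over a group and not the spread of lines within it, so that spread could be set beside the uneven regions. The pooled SD of log2 CPM between lines of a group had a median of 0.287 in the even and 0.332 in the uneven strong regions. From 30 to 50 CPM the medians were 0.333 and 0.361, from 50 to 80 CPM they were 0.284 and 0.336, and from 80 CPM up they were 0.259 and 0.298. The median of the even regions was the lower in each class of signal. By group, the medians of even and uneven regions lay furthest apart in Met2, at 0.228 and 0.302. They were 0.321 and 0.333 in Met1, 0.201 and 0.219 in Primary2, 0.239 and 0.271 in Primary3, and 0.210 and 0.230 in Met3. A line that differs from its group also moves the pooled group value, so spread and ratio are not independent. Without the 2 shallow lines the medians were 0.232 and 0.276. The biological coefficient of variation that edgeR estimated, which sets counting error aside, had medians of 0.204 and 0.217. Regions are not replicates of a group, so these medians carry no test.

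Counting error was smaller than the observed spread at most even regions. Poisson counting alone would give the even regions a median SD of 0.194 at 30 to 50 CPM, 0.157 at 50 to 80 CPM and 0.120 from 80 CPM up. The observed SD was below the counting value in 34 even regions and more than 2 times it in 716. The median of observed over counting SD was 1.92 in the even and 2.13 in the uneven regions.

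**Figure D3:**
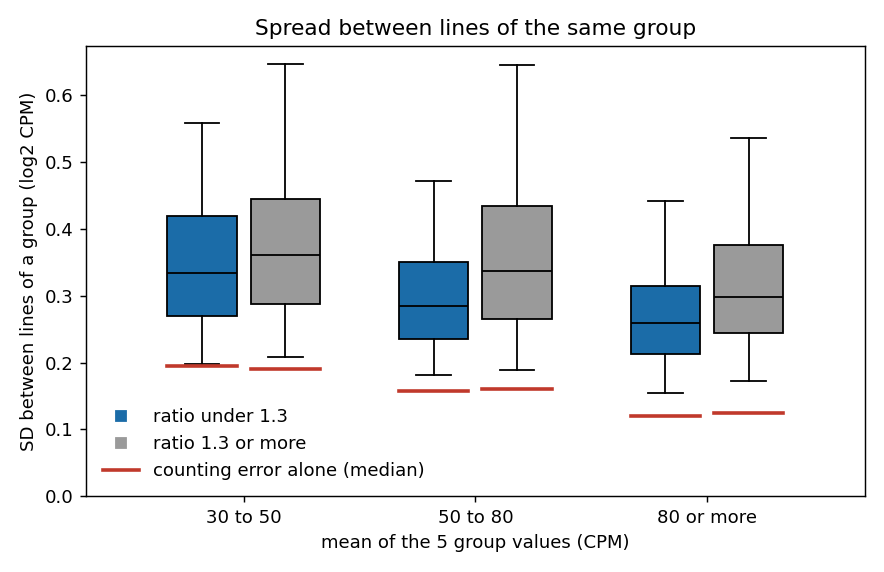
Pooled SD of log2 CPM between lines of a group (vertical, from 0) in even (blue) and uneven (grey) strong regions, by the mean of the 5 group values in CPM. Boxes give quartiles with the median, whiskers the 5th and 95th percentiles, and red lines the median SD expected from counting alone, and the blue medians of 0.333, 0.284 and 0.259 lie under the grey ones in each class.

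Tested across all 39952 regions that passed the filter on low counts, no even region was called at an adjusted p under 0.05 by edgeR's quasi-likelihood test, either for any difference among the 5 groups or for metastasis against primary in rounds 2 and 3 together. Of all regions tested, 18.3% were called in the first test and 20.2% in the second, and since the rule used these same group values, nothing is read from the absence of even regions. All 1587 even regions passed the filter. At an unadjusted p under 0.05 the any-difference test counted 1 even region and the metastasis test 19. Over all 39952 regions tested these counts were 12752 and 12739. The 1 even region was peak_96462 on chromosome 8, singled out after its values were seen, with an adjusted p of 0.12 from the edgeR fit across all regions. At an adjusted p under 0.05, DESeq2 called 0 and 4 even regions, and 9702 and 8929 over all regions. Among the uneven strong regions, 1002 (19.4%) were called in the first test and 1057 (20.5%) in the second.

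The metastasis-against-primary difference of the even regions had a median log2 fold change of 0.04, the same as the median of all regions tested, with 5% of them under -0.19 and 5% over 0.28. Its median SE was 0.179. The 95% interval of that difference lay within 1.3-fold either way in 212 even regions (13.4%), within 1.5-fold in 1271 (80.1%) and within 2-fold in 1586. For most even regions the interval therefore reached past 1.3-fold, the limit that the rule set on pooled values. The rule bounded the group values behind these estimates, so the intervals need not hold at 95% here. Counts of intervals within a fold are a description and no evidence of equal levels.

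A few even regions came nearest to a difference between metastasis and primary lines, and they were picked after their values were seen. At peak_16016, 3886 bp wide at positions 101031637 to 101035523 of chromosome 11, the Primary2 lines stood at 162, 186 and 165 CPM and the Primary3 lines at 194, 269.6 and 166. The Met2 lines stood at 119.7, 149 and 139.5 CPM and the Met3 lines at 152, 151 and 115. Every metastasis line of rounds 2 and 3 lay under every primary line of its round, with a log2 fold change of -0.37 (SE 0.14, adjusted p = 0.054 by edgeR's quasi-likelihood test). The Met1 lines, outside this contrast, stood at 161, 135 and 164 CPM and overlapped with the Primary2 range. The highest value, 269.6 CPM, came from Primary3 replicate 2, the shallowest line. In the opposite direction, peak_101988 on chromosome 9, positions 44204668 to 44205459, stood at 92.6, 99.8 and 100.4 CPM in Primary2 and at 118, 111 and 153 in Met2. It stood at 86.9, 112 and 104 CPM in Primary3 and at 123, 119 and 118 in Met3, again with no overlap within either round, and the log2 fold change was 0.39 (SE 0.15, adjusted p = 0.067, edgeR). Its Met1 lines stood at 84.8, 125.9 and 126.0 CPM, a range that took in those of both primary groups. At peak_26932 on chromosome 14, positions 21748085 to 21749266, the log2 fold change was 0.35 (SE 0.13, adjusted p = 0.060, edgeR), and the Primary3 and Met3 ranges overlapped. In all, 9 even regions passed the threshold for metastasis against primary in at least 1 of 21 alternative fits. No single fit called more than 5 even regions, while each called 5951 to 8950 regions in all. For any difference among the groups, no even region passed the threshold, while each fit called 5055 to 9702 regions in all.

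Each of the 5 groups was the highest at some even regions and the lowest at others. Met1 was the highest group at 400 even regions, Primary3 at 345, Met3 at 326, Primary2 at 283 and Met2 at 233. Primary2 was the lowest group at 434, Met2 at 369, Met3 at 273, Met1 at 257 and Primary3 at 254. Some of these shares were near those of the uneven strong regions and some were not. Primary2 was the lowest group at 27.3% of even and 27.8% of uneven regions, and Met1 at 16.2% and 24.1%. Met1 was the highest at 25.2% and 23.2%, and Met3 at 20.5% and 26.3%. The commonest of the 20 possible orders, Met1 highest and Primary2 lowest, held at 141 even regions (8.88%), and the rarest, Met2 highest and Met3 lowest, at 37 (2.33%). The median level of the even regions was between 63.1 CPM in Met2 and 64.3 CPM in Primary3 and Met1.

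Together the even regions took a mean of 11.96% ± 0.67 (SD, n = 15 lines) of the counts in regions. The lowest share was 9.87%, in Met1 replicate 1, and the other 14 lines lay between 11.47% and 12.65%. In that same line the share in uneven strong regions was also the lowest at 29.8%, against 35.6% to 39.9% in the other lines, so strong regions of both kinds held less of its signal. Single regions followed the same pattern: Met1 replicate 1 was the lowest of the 15 lines at 506 even regions, while Primary3 replicate 2 was the highest at 400 and the lowest at 261. The deepest line, Primary3 replicate 3, was the highest at 27 and the lowest at 10.

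Even regions were of ordinary size for strong regions. Their median width was 1156 bp (range 306 to 4946), against 1218 bp in the uneven strong regions and 746 bp over all regions, and 12.1% of them against 15.3% were 2000 bp or wider. By width, the share of strong regions that were even was 21.6% under 750 bp, 24.7% from 750 to 1000 bp, 25.6% from 1000 to 1500 bp, 22.4% from 1500 to 2000 bp and 19.6% above. The share was thus highest at intermediate widths and lowest among the widest. By signal, it was 25.8% at 30 to 50 CPM, 19.4% at 50 to 80 CPM, 26.1% at 80 to 120 CPM, 30.4% at 120 to 200 CPM and 26.6% of the 109 regions above 200 CPM.

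The widest even region was peak_65093, 4946 bp at positions 55543045 to 55547991 of chromosome 4 with 135.3 CPM, followed by peak_10208 on chromosome 10 (4180 bp), peak_16016 (3886 bp) and peak_15281 (3875 bp) on chromosome 11. The narrowest was peak_52890, 306 bp at positions 35127331 to 35127637 of chromosome 2 with 33.8 CPM, followed by peak_13367 on chromosome 11 (450 bp), peak_41111 on chromosome 17 (464 bp) and peak_57292 on chromosome 2 (467 bp). Wide even regions held more counts and less signal per length. The median density fell from 76.3 CPM per kb under 750 bp to 33.0 CPM per kb at 2000 bp and above, while the median level rose from 48.5 to 84.1 CPM.

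The authors' score, which each region carries in its name and whose scale no source used here states, had a median of 140.1 in the even regions, 124 in the uneven strong regions and 21.8 over all regions. Divided by the mean signal, the score had a median of 2.24 per CPM in the even and 1.91 in the uneven regions. The even median was the higher in each class of signal, at 2.41 against 2.18 from 30 to 50 CPM, 2.32 against 1.90 from 50 to 80 CPM and 2.03 against 1.64 from 80 CPM up.

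Along the chromosome, the median distance to the next region was 7170 bp, against 6141 bp for the uneven strong regions and 7327 bp over all regions, and a median of 4 other regions lay within 50 kb, against 5. The closest pair of neighbouring even regions, peak_65956 and peak_65957 on chromosome 4, lay 808 bp apart, with mean levels of 60.6 and 60.2 CPM. The second pair, peak_50230 and peak_50231 on chromosome 19, lay 888 bp apart with 116.6 and 58.8 CPM, and the third, peak_11959 and peak_11960 on chromosome 11, 938 bp apart with 63.8 and 169 CPM. The 15 lines ranged 2.27-fold at peak_65956 and 2.40-fold at peak_65957. They ranged 1.35-fold at peak_50230 and 2.77-fold at peak_50231, and 8.23-fold at peak_11959, where Primary3 replicate 2 held 3 counts, and 1.96-fold at peak_11960. The range was thus similar within the first pair and not within the other pairs.

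Some even regions neighboured each other. Where 2 neighbouring strong regions lay within 5 kb, 27.4% of the even ones had an even partner, and the share was 32.6% from 5 to 20 kb, 30.3% from 20 to 100 kb and 28.6% beyond. The share of all strong regions that were even was 23.5%, and 26.3% on average over the chromosomes on which the even regions lay. The shares did not fall steadily with distance. The longest runs of successive strong regions that were all even, at gaps under 100 kb, held 5 regions each, 1 run at positions 51004225 to 51220823 of chromosome 3 with levels of 42.6 to 87.8 CPM and 1 at 31348064 to 31515073 of chromosome 7 with 41.8 to 146.8 CPM.

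The regions beside even regions were not held to the rule and could be tested. Of the 1587 even regions, 539 had another region that was not even within 5 kb, and 78 of their neighbours (14.8% of those tested) were called for any difference among the groups by edgeR, against 19.04% of all regions that were not even. For metastasis against primary 90 (17.1%) were called, against 21.1%. With neighbours limited to regions that missed 30 CPM in some group, 14.9% were called beside even and 18.7% beside uneven strong regions. By the neighbour's own signal the shares were 9.40% and 9.89% under 10 CPM, 14.9% and 17.9% from 10 to 20 CPM, and 19.1% and 26.1% from 20 CPM up. The share beside even regions was the lower of each pair, and under 10 CPM the 2 shares nearly coincided. Without Met1 replicate 2 the count beside even regions was 49 in place of 78, and the count over all regions 5512 in place of 7305. The difference between these shares carries no test, since regions are not replicates. Chromosomes differed in their share of even regions, as given below, and the neighbours compared were not matched by chromosome. The part that this had in the lower shares was not tested.

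The chromosomes differed in the share of their strong regions that were even. It was 46.8% on chromosome X (36 of 77), 34.3% on chromosome 11 (210 of 612), 31.9% on chromosome 3 and 31.3% on chromosome 16. The lowest shares were 11.4% on chromosome 15, 12.2% on chromosome 9, 12.5% on chromosome 8, 12.6% on chromosome 18 and 13.7% on chromosome 13. Chromosome 11 alone carried 13.2% of all even regions.

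These shares moved with how far whole chromosomes stood apart between groups. For each group, the shift of a chromosome was the median over its regions of log2 CPM relative to all lines, and the range of that shift over the 5 groups was 0.06 on chromosome X, 0.22 on chromosome 11 and 0.46 on chromosome 18. On the 7 chromosomes with a range of 0.25 or more (1, 5, 6, 8, 13, 15 and 18), 341 of 2317 strong regions (14.7%) were even, against 1246 of 4423 (28.2%) on the other 13. Lines of a group did not always share its shift. On chromosome 15 the lines of Met1, the highest group, stood at -0.004, 0.48 and -0.004. On chromosome 5 those of Met2, the highest, stood at 0.60, -0.15 and 0.18. On chromosome 18 the lines did agree, at 0.37, 0.29 and 0.22 in Primary2, the highest group. In Met2, the lowest there, they stood at -0.14, -0.17 and -0.18. Across the 20 chromosomes the share and the range had a Pearson r of -0.77 and a Spearman rho of -0.69, as a description, since both come from the same libraries and the same group values. After each line's chromosome medians were removed, an alternative added after seeing the data, the shares were 30.2% and 31.3%, with r -0.28 and rho -0.20. That left 2102 even regions, of which 1230 were among the original 1587. The removal took out the same shifts that set the 7 chromosomes apart, so a rise there and a weaker r were favoured beforehand. These values are a description too.

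Chromosomes 9 and X remained apart after the removal. Chromosome X rose to 50.0% and chromosome 9 to only 17.4%, the lowest, where the next lowest was 26.4% on chromosome 14. In steps of 20 Mb along chromosome 9, as counted before the removal, the highest share was 25%, 7 of 28 strong regions from position 80000001. The lowest was 3.64%, 2 of 55 from position 100000001. The steps before these held 12.5%, 6.67%, 17.1% and 12.9%, and the last step 6.25%. From position 100000001 the groups' shifts ran from -0.42 in Met3 to 0.22 in Met1. In the last step they ran from -0.38 in Met3 to 0.18 in Met1. From position 20000001, where the share was 6.67%, they ran from -0.18 in Primary2 to 0.14 in Met3. The part that these shifts had in the shares was not tested.

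**Figure D4:**
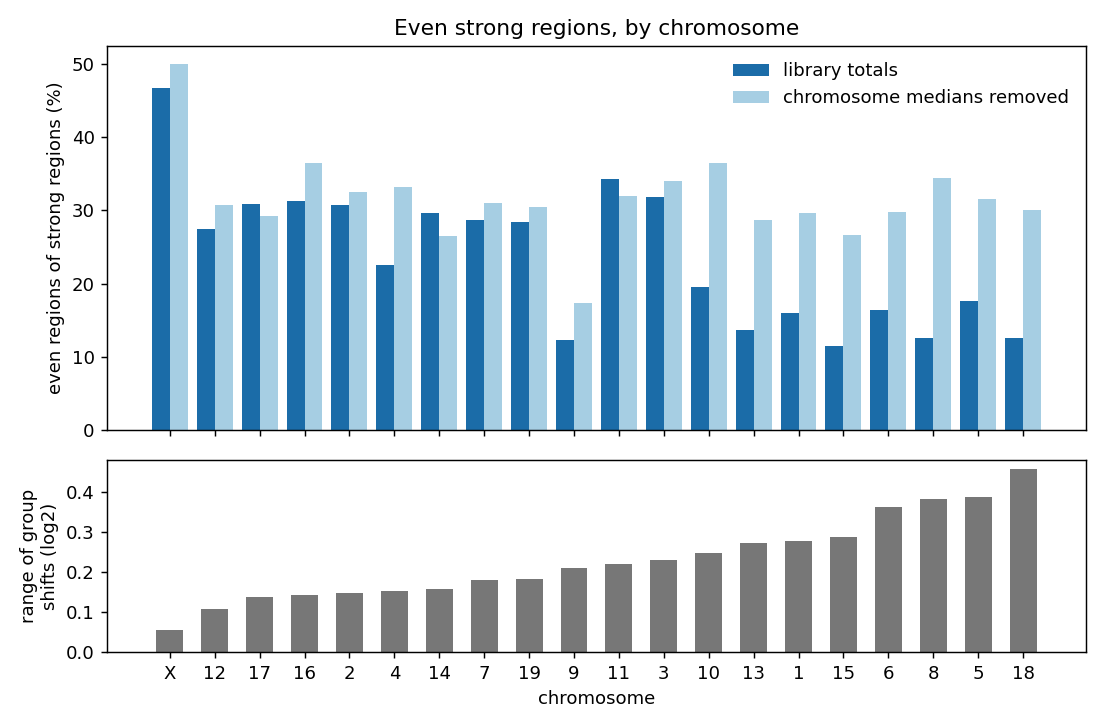
Share of strong regions that were even on each chromosome (top, percent, from 0), with library totals as scaling (dark) and after each line's chromosome medians were removed (light), and the range of the chromosome's shift over the 5 groups (bottom, log2). Chromosomes are ordered by that range, and the 7 on the right, with ranges of 0.25 or more, hold shares of 11.4% to 17.6% that rise to 26.7% to 34.5% after removal.

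Within groups, the even regions of a chromosome could stand high or low together in 1 line. On chromosome 5, the 76 even regions stood at a median of 0.47 above their group on the log2 scale in Met2 replicate 1, with 73 of the 76 above it, and at -0.41 in Met2 replicate 2, with 72 of 76 below. The regions of chromosome 5 as a whole deviated by 0.39 and -0.36 in the same lines. Primary2 replicates 1 and 3 stood at 0.30 and -0.30 there and Met3 replicates 1 and 2 at 0.24 and -0.28, while the largest deviation in Met1 or Primary3 was 0.05. The level of chromosome 5 thus differed between the lines of 3 groups. The spread of peak_78413, the strongest of these 76 regions, followed that order, with the high values in Met2 replicate 1, Primary2 replicate 1 and Met3 replicate 1. On chromosome 6, the 64 even regions stood at -0.33 in Met2 replicate 3, with 59 of 64 below their group, and on chromosome 15 the 36 stood at 0.28 in Met1 replicate 2.

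Over all 300 combinations of chromosome and line, the even regions' median deviation passed 0.2 in 13 and 0.1 in 43, and its median size was 0.03. Chromosome 5 had the highest median within-group SD of the even regions at 0.39, followed by chromosome 13 at 0.38, and chromosome 12 the lowest at 0.24.

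**Figure D5:**
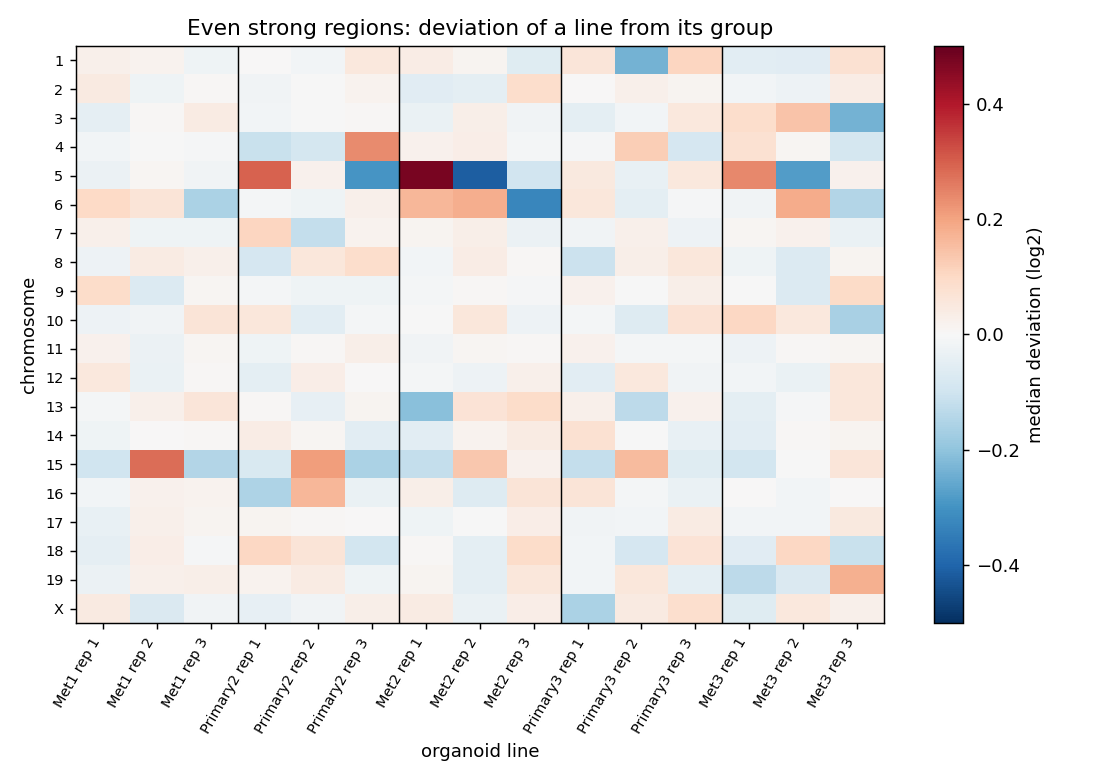
Median deviation of the even regions of a chromosome (rows) from their group in each of the 15 lines (columns, groups separated by lines), on the log2 scale by colour. Chromosome 5 holds the extremes, 0.47 in Met2 replicate 1 and -0.41 in Met2 replicate 2, and most cells lie within 0.1 of 0.

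Across the even regions, pairs of lines from different groups were as alike as lines of the same group, which the rule favours. The correlation of log2 CPM over the 1587 regions had a median of 0.882 over 90 pairs between groups and 0.860 over 15 pairs within groups. Over the uneven strong regions the medians were 0.629 and 0.804. The median absolute difference of a pair of lines at an even region was 0.23 between and 0.26 within groups on the log2 scale. The correlations carry no p because the regions share their libraries.

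The set was sensitive to single libraries. When each of the 15 libraries was left out in turn, the rule kept between 1345 and 1591 regions, sharing between 1227 and 1564 with the original 1587, and 408 of the 1587 (25.7%) were kept in all 15 removals. The fewest shared regions, 1227 and 1228, came from leaving out Primary3 replicate 3 and Met2 replicate 2. With library sizes by TMM, by DESeq2's size factors and with the 3 lines of a group weighted equally, 862 (54.3%) were kept in all 3, and 350 (22.1%) met both conditions. Equal weights alone kept 1028 of the original regions.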

How the data were processed

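Per the submitters' processing notes, Bowtie, Picard, SAMtools, MACS2 and bedtools were used with build mm9, with no roles or versions given. No source used here states if the authors offset reads for the transposase or dropped duplicates. Counts in the deposited table are whole numbers of reads for each region in each library, made by the authors over 1 region set for all 15 libraries, so every line was measured in the same intervals. The labels' protocols give 50000 cells per library and paired reads of 75 bp. Each region's name carries a score from the authors, which was used only to describe regions. Every column of the table matched a sample by name.

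The titles of the samples gave group and replicate. CPM are counts divided by the library's total in regions, and a group's CPM is its summed counts over its summed totals. The even regions, their limits and the rule for naming regions were chosen with earlier results of these data known. Named were the 6 strongest even regions, the 6 with the lowest ratio, the 4 with the smallest and the 4 with the largest spread, the 4 widest and 4 narrowest, the 3 on either side of each limit, the 3 closest pairs and the strongest of each chromosome.

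Counts were tested with edgeR 4.0.16 (limma 3.58.1, R 4.3.3). filterByExpr (minimum count 10, minimum total 15) kept 39952 regions (92.9%), libraries were scaled by TMM, and all 15 libraries entered a single robust quasi-likelihood fit with a mean for each of the 5 groups. The contrasts were any difference among the groups and the mean of Met2 minus Primary2 and Met3 minus Primary3. Calls used a Benjamini-Hochberg adjusted p under 0.05 over all regions tested. The code was tested on simulated counts, with only 100 regions changed 1.5-fold and 100 changed 2-fold among 38513. The test of metastasis against primary recovered 6 and 61 of these, so most 1.5-fold changes were missed in that setting. The labels do not say that lines of a group came from separate animals, so p-values measure only the spread between these lines. Log2 CPM for spreads and shifts used TMM and a prior count of 2, and a region's spread was pooled over the 5 groups. The counting SD came from a Poisson model of each line's counts, and it, like the limit for a count of 0 (3 counts), covers counting error only. Depth ran from 285633 to 5916109 counts.

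Alternatives were other limits of the rule, other scalings, equal weights for lines, DESeq2 1.42.0, no filter, the replicate number as a block, leaving out each library or the 2 shallowest, and removal of chromosome medians. The other steps ran in Python 3.11.15 with pandas 2.3.3, numpy 2.4.6 and scipy 1.17.1, and plots were drawn with matplotlib 3.10.9. Sequence features and gene names were not analysed, because no genome or annotation of build mm9 was used here.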

Additional observations from a re-analysis of the deposited data

Results flagged for a closer look

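The share of counts in even regions was 9.87% in Met1 replicate 1, which lay further below the other 8 metastasis lines than Dixon's 95% limit for 9 values allows. Chance flags about 1 in 20 groups where the values are not chosen beforehand. The even regions were chosen from these same counts, with groups held alike and deeper lines weighing more, so that rate need not hold here. The line was the second shallowest with 790233 counts, its TMM factor of 1.13 was the highest of the 15, and its share in uneven strong regions was 29.8%. The part that depth or library quality had in this was not tested. Without this line the rule kept 1524 even regions, of which 1476 were among the original 1587.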

How the results depend on the processing

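The number of even regions was set by the rule's limits: 604 at a ratio under 1.2, 2640 under 1.4 and 955 with at least 50 CPM in every group. It was 1937 at 20 CPM, 1521 with TMM, 1539 with DESeq2's size factors, 1360 with equal weights, 1530 without the 2 shallowest libraries, and 1345 to 1591 when each library was left out in turn. At 50 CPM the median width was 1234 bp, and at a ratio under 1.2 the mean share of counts was 4.85%. The median within-group SD was 0.232 without the 2 shallowest libraries and 0.256 to 0.294 with 1 library left out. For metastasis against primary, 5 even regions were called with DESeq2's size factors in edgeR, 4 by DESeq2, 2 with total counts, 4 without the 2 shallowest libraries (added after seeing the data) and 0 to 4 with 1 library left out, against 0 in the reported fit, and the cause was not tested. Any difference among the groups called 0 even regions in every alternative fit. Regions called numbered 5951 to 8950 for metastasis against primary and 5055 to 9259 for any difference with 1 library left out. Neighbours called numbered 30 within 2 kb, 157 within 20 kb, 103 by DESeq2 and 49 to 102 with 1 library left out. Of 990 ratios of 55 named even regions over the scalings and removals, 135 left the rule's limits, and 16 regions never did.

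Same-numbered lines of different groups had correlations of -0.15 to 0.23, and 4 of 30 were over 0.1. Best with their own number were 11 of the 30. Such correlations cannot decide if the replicate numbers pair the lines. With the replicate block, 7269 and 6022 regions, 70 neighbours and 0 even regions were called in either test. Sequence features were not run. Depth limits the even regions most in Primary3 replicate 2, where 3 of them had 0 counts.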
